A study of Mus musculus with 16 samples.

Results

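Baalc, Lhx6, Wnt10a, Adgrg2 and Bhlha15 are 5 of the 41079 genes counted in the liver RNA of aged mice with or without the hepatic glucagon receptor (GCGR). They were chosen from these data, as genes with few reads in control livers and more reads in knockout livers. The difference between knockout and control is therefore what selected them, and it is described here without a p-value. Tests and counts over all genes include the 5, and nothing is read from those about these genes. All 5 were among the 16742 genes that passed the filter on low counts, and Baalc and Wnt10a, with almost no reads in controls, passed it through the knockout libraries.

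None of the 5 is a classical gene of hepatocytes. Wnt10a encodes a secreted Wnt ligand known from skin, hair follicle and tooth, which acts through Frizzled and LRP receptors and stabilises β-catenin. Adgrg2 encodes an adhesion G protein-coupled receptor of the efferent ducts and epididymis. Baalc encodes a small membrane-associated protein of brain and early blood progenitors that is a known marker in acute leukaemia. Lhx6 and Bhlha15 encode transcription factors, the former a LIM-homeodomain protein of cortical interneurons and the latter (also called MIST1) a basic helix-loop-helix protein of secretory cells such as pancreatic acinar cells and plasma cells. Glucagon acts on hepatocytes through GCGR, which raises cAMP and drives glucose output and amino acid breakdown.

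Livers came from mice on the C57BL/6J background aged 20 to 22 months, with 4 libraries in each of 4 groups. LKO mice carried a floxed Gcgr gene and Albumin-Cre, which recombines in hepatocytes from development onward. CRE- controls carried the floxed Gcgr gene without Cre, so the floxed allele is shared by both genotypes and Cre itself is not controlled for. The groups were male CRE-, male LKO, female CRE- and female LKO, and LKO mice were compared with CRE- controls of the same sex. The labels number the libraries of a group as biological replicates, and each was taken as 1 mouse. Between 33268424 and 56488920 reads per library fell on genes, with medians of 44288170 in male CRE-, 38475729.5 in male LKO, 46840916 in female CRE- and 37348750.5 in female LKO. Levels are given as CPM, the usual depth-scaled count per library, after normalization by TMM (a trimmed mean over genes), and both mates of a read pair were counted, so that a pair usually adds 2 reads.

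The deleted gene was measured first. Gcgr was at 190, 193, 127 and 190 CPM in male CRE- replicates 1 to 4 and at 117, 136, 130 and 160 CPM in male LKO replicates 1 to 4, so that the male groups overlapped through CRE- replicate 3. In females it was at 162, 208, 201 and 180 CPM in CRE- replicates 1 to 4 and at 48.8, 132, 119 and 93.6 CPM in LKO replicates 1 to 4, and every LKO library was below every control, as for 6.42% of all genes tested (2.92% in males). The log2 fold change was -0.37 (SE 0.24, adjusted p = 0.671) in males and -0.93 (SE 0.25, adjusted p = 0.0443) in females by the quasi-likelihood F test of edgeR after Benjamini-Hochberg adjustment. With 1 female library left out at a time, the female call was kept only without LKO replicate 2 (adjusted p = 0.0225 in the quasi-likelihood F test of edgeR after Benjamini-Hochberg adjustment), and the adjusted p of those 8 fits reached 0.136. The female call was also lost with each sex fitted alone (adjusted p = 0.132) and without a filter on low counts (adjusted p = 0.0545), both in the quasi-likelihood F test of edgeR with Benjamini-Hochberg adjustment. Reads from exons that Cre leaves in place, and from cells without Cre, are part of this count, so it checks the labels only in part. Every female LKO library was also below every female control for summed hepatocyte markers, as given below. The part of this in the Gcgr values was not tested.

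The 5 genes did not all start from near 0. With a mean of under 0.5 CPM in controls taken as near-silent, Baalc and Wnt10a were near-silent in both sexes. Bhlha15 was near-silent in males, at a control mean of 0.301 CPM, and at the limit in females, at 0.506 CPM. Lhx6 and Adgrg2 were expressed in control livers, with control means of 8.12 and 3.58 CPM in males and 5.14 and 2.18 CPM in females. Per length, the control mean of Lhx6 was above that of 45.6% of all genes tested in males and 39.4% in females, and that of Adgrg2 above 29.2% and 24.3%. In a bulk liver sample, more cells of a type and more RNA per cell cannot be told apart, which holds for every gene described here.

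Wnt10a lies on chromosome 1 of GRCm39 from 74831178 to 74843335, on the plus strand. Its level was 0, 0, 0 and 0.0899 CPM in male CRE- replicates 1 to 4 and 3.11, 0.791, 8.72 and 1.13 CPM in male LKO replicates 1 to 4. The female values were 0.0444, 0.0779, 0.0958 and 0.0535 CPM in CRE- replicates 1 to 4 and 1.61, 31.1, 3.49 and 11.7 CPM in LKO replicates 1 to 4. The groups did not overlap in either sex, male LKO replicate 3 and female LKO replicate 2 stood highest, and the female LKO libraries spanned a 19.3-fold range. Only 4 reads in male controls and 12 in female controls were on the gene, against 552 and 1906 in LKO mice. The ratio of pooled counts was 149 in males (95% counting interval 41.0 to 1240) and 165 in females (75.6 to 451). These intervals were computed on read pairs by the exact conditional binomial method, and like the floors used below they cover counting error only. The fitted log2 fold change was 7.08 (SE 1.24) in males and 7.40 (SE 1.14) in females. It was 6.04 without male LKO replicate 3, 10.20 without male CRE- replicate 4, the only male control with reads, and 6.29 without female LKO replicate 2.

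Adgrg2 lies on chromosome X from 159173315 to 159281072, on the plus strand. In males its level was 5.44, 3.61, 2.29 and 2.97 CPM in CRE- replicates 1 to 4 and 20.4, 19.5, 11.7 and 14.1 CPM in LKO replicates 1 to 4. All 4 male LKO libraries were well above the highest control. The female values were 1.64, 2.34, 4.12 and 0.641 CPM in CRE- replicates 1 to 4 and 10.4, 10.3, 15.02 and 4.02 CPM in LKO replicates 1 to 4. Here 3 of 4 LKO libraries were above all controls, and LKO replicate 4 was just under CRE- replicate 3. The mean rose from 3.58 ± 1.35 to 16.4 ± 4.22 CPM in males and from 2.18 ± 1.46 to 9.94 ± 4.52 CPM in females (SD, n = 4 each). The log2 fold changes were nearly equal, at 2.20 (SE 0.47) in males and 2.18 (SE 0.47) in females.

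Baalc lies on chromosome 15 from 38739763 to 38814659, on the plus strand. It had no read in any of the 4 male CRE- libraries and was at 0.926, 0.375, 1.54 and 0.810 CPM in male LKO replicates 1 to 4. In females it had 2 reads in CRE- replicate 2 (0.0389 CPM), none in the other 3 controls, and 0.856, 2.44, 2.23 and 1.68 CPM in LKO replicates 1 to 4. The groups were thus fully separate in both sexes, while the gene remained low in LKO livers, with 146 reads in all in males and 312 in females. Against a floor of 3 read pairs (6 reads) over the male control group, Baalc was at least 26.3-fold higher in the male LKO livers, and the 95% counting interval on read pairs began at 20.8. For females the ratio of pooled counts was 162, with a 95% counting interval on read pairs of 28.7 to 6441. The fitted log2 fold changes of 8.29 (SE 1.06) in males and 7.01 (SE 0.86) in females depend on the prior count and bound nothing. Without female CRE- replicate 2, which held both control reads, the female value was 9.26.

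Lhx6 lies on chromosome 2 from 35971962 to 35996004, on the minus strand. Its level was 8.62, 7.80, 8.74 and 7.33 CPM in male CRE- replicates 1 to 4 and 14.1, 12.3, 21.5 and 16.8 CPM in male LKO replicates 1 to 4. In females it was 6.99, 4.79, 2.75 and 6.04 CPM in CRE- replicates 1 to 4 and 16.5, 15.6, 21.6 and 17.9 CPM in LKO replicates 1 to 4. Neither sex had overlapping groups, and Lhx6 varied least among the LKO libraries, with a coefficient of variation of 0.246 in males and 0.149 in females. The log2 fold change was 0.99 (SE 0.24) in males and 1.80 (SE 0.25) in females. LKO livers of the sexes ended at similar means of 16.2 ± 3.98 CPM in males and 17.9 ± 2.67 CPM in females (SD, n = 4 each), while the control mean was lower in females.

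Bhlha15 lies on chromosome 5 from 144127104 to 144131259, on the plus strand. In males its level was 0.162, 0.356, 0.416 and 0.270 CPM in CRE- replicates 1 to 4 and 2.37, 4.08, 3.78 and 2.65 CPM in LKO replicates 1 to 4. Each male LKO library was thus several-fold above the highest male control. In females the level was 0.621, 0.740, 0.287 and 0.374 CPM in CRE- replicates 1 to 4 and 1.31, 0.698, 2.71 and 3.07 CPM in LKO replicates 1 to 4. Female LKO replicate 2, the library with the most Wnt10a and Baalc, was within the control range, and the other 3 were above it. The counts behind these levels were low, with 52 reads over the male controls and 92 over the female controls. The log2 fold change was 3.41 (SE 0.50) in males and 1.93 (SE 0.47) in females.

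**Figure D1:**
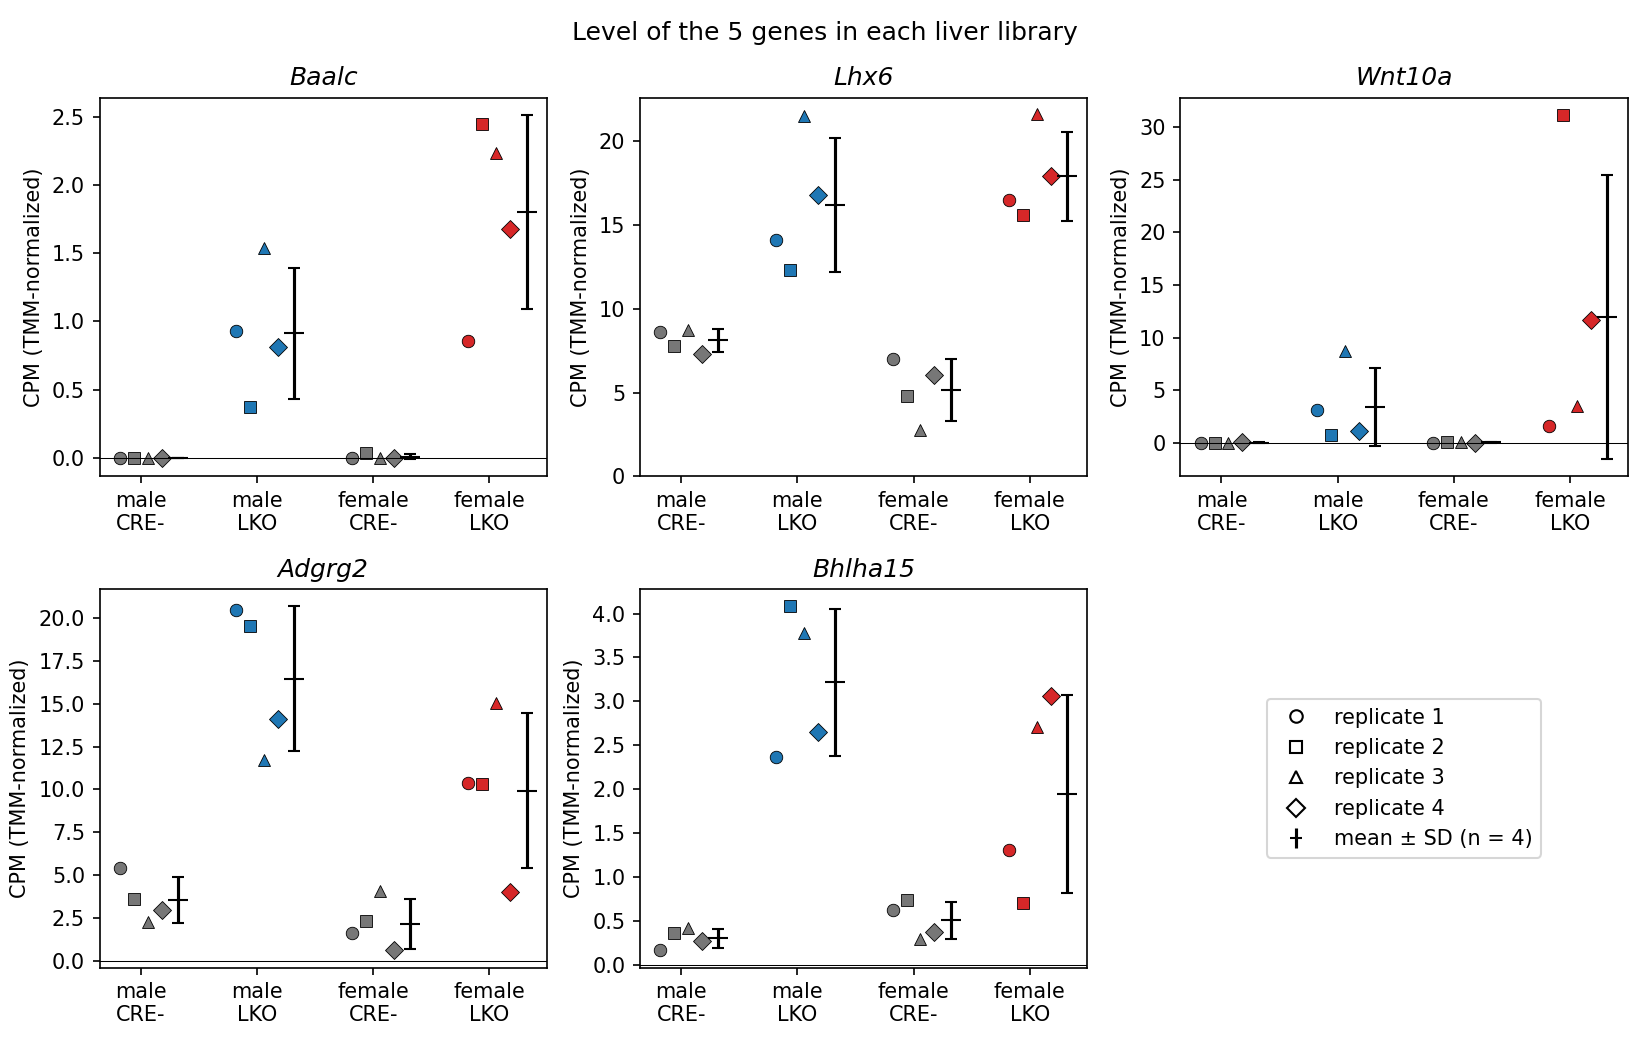
TMM-normalized CPM (y axis, linear) of each of the 5 genes in the 4 groups (x axis); each symbol is 1 library, its shape gives the replicate number, and the bar is the mean ± SD (n = 4). Baalc and Wnt10a sit at or near 0 in all controls, Lhx6 and Adgrg2 do not, and the female groups touch for Adgrg2 and Bhlha15.

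In males the LKO and control libraries did not overlap for 5 of the 5 genes, in females for 3 and in both sexes for 3, namely Baalc, Lhx6 and Wnt10a. Among all genes tested, every LKO library was above every control for 3.57% in males, 5.2% in females and 0.412% in both sexes. Since the genes were chosen for this difference, the counts are what the choice made them. The sexes were set side by side without a test. The female log2 fold change minus the male one was 0.32 (SE 1.69) for Wnt10a, -0.01 (SE 0.66) for Adgrg2, -1.28 (SE 1.36) for Baalc, 0.80 (SE 0.35) for Lhx6 and -1.48 (SE 0.68) for Bhlha15.

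Between genes, levels were compared as RPKM, which divides CPM by the summed exon length in the deposited table (1962 bases for Wnt10a, 11459 for Baalc, 4471 for Lhx6, 6061 for Adgrg2 and 3494 for Bhlha15). In male LKO livers the order was Lhx6 at 3.62 ± 0.889 RPKM, Adgrg2 at 2.71 ± 0.696, Wnt10a at 1.75 ± 1.87, Bhlha15 at 0.921 ± 0.240 and Baalc at 0.0797 ± 0.0420 RPKM (SD, n = 4 each). Every neighbouring pair in that order overlapped in its libraries except Bhlha15 and Baalc. In female LKO livers Wnt10a came first at 6.10 ± 6.87 RPKM, before Lhx6 at 4.002 ± 0.597, Adgrg2 at 1.64 ± 0.745, Bhlha15 at 0.557 ± 0.322 and Baalc at 0.157 ± 0.0618 RPKM (SD, n = 4 each). There the neighbouring pairs overlapped except Lhx6 and Adgrg2. In controls of both sexes the order was Lhx6, Adgrg2, Bhlha15, Wnt10a and Baalc, from 1.82 ± 0.151 RPKM down to 0 in males and from 1.15 ± 0.409 down to 0.000849 ± 0.00170 RPKM in females (SD, n = 4 each). Neighbours in the control order overlapped for Wnt10a and Baalc in males, and for Lhx6 and Adgrg2 and for Adgrg2 and Bhlha15 in females.

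The LKO mice did not rank alike for all 5 genes. In males Wnt10a and Baalc were highest in LKO replicate 3 and lowest in replicate 2, whereas Bhlha15 was highest in replicate 2 and Adgrg2 was lowest in replicate 3. Lhx6 was also highest in male replicate 3 and lowest in replicate 2. In females Wnt10a and Baalc were highest in replicate 2 and lowest in replicate 1. Female replicate 2 was the lowest of its group for Lhx6 and Bhlha15, and female replicate 4 was the lowest for Adgrg2 and the highest for Bhlha15.

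Likeness of pattern was measured as the root mean square difference between log2 CPM profiles (prior count 2), each centred on its mean, over the 16 libraries. The genes nearest to Wnt10a were Baalc, at a difference of 1.01, the membrane-binding I-BAR protein gene Baiap2l2, at 1.19, and the imprinted non-coding RNA H19, at 1.56, where the median over all genes tested was 3.09. For Baalc they were Baiap2l2 at 0.986, Wnt10a at 1.01 and the secreted peptide Adm2 at 1.07, against a median of 2.41. H19 in male LKO replicates 1 to 4 was at 24.7, 2.29, 48.5 and 6.43 CPM, the same rank order as Wnt10a, but in females it was highest in LKO replicate 4, at 1775 CPM. For Adgrg2 the nearest genes were the kinase Wnk4 at 0.654, Trib3, a pseudokinase of the integrated stress response, at 0.734 and the non-coding gene 2900060L22Rik at 0.743, against a median of 1.44. For Bhlha15 they were the oxysterol hydroxylase Cyp39a1 at 0.714, the proline synthesis enzyme Pycr1 at 0.750 and the zinc finger gene Zfp9 at 0.851, against 1.49. For Lhx6 they were Zfp9 at 0.462, Neurl1a at 0.467 and the mitochondrial carrier Slc25a33 at 0.479, against 0.944. The order depended on the prior count. With a prior count of 0.5, Pcdh20 came first for Baalc, where Adm2 was no longer among the first 3, and replaced H19 for Wnt10a, 4732416N19Rik came second for Adgrg2, where 2900060L22Rik was no longer among the first 3, and Phgdh replaced Zfp9 for Bhlha15. A larger change leaves more room to differ, so these distances are comparable within a gene and not between genes. Baalc and Wnt10a were both chosen for a rise from near 0, so nothing is read from their likeness to each other.

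Wnk4, the nearest gene to Adgrg2, was between 1.07 and 1.72 CPM in the 4 male controls and at 5.56, 8.52, 13.8 and 10.3 CPM in male LKO replicates 1 to 4. The change on the log2 scale was 2.81 (SE 0.45, adjusted p = 0.00822) in males and 1.84 (SE 0.44, adjusted p = 0.0323) in females by the quasi-likelihood F test of edgeR after Benjamini-Hochberg adjustment. The male call held with any 1 male library left out, but not without both control libraries that held pancreatic markers, left out after the data were seen (log2 fold change 2.698, adjusted p = 0.0739 in the same edgeR test with Benjamini-Hochberg adjustment). The female call was lost without any of the 4 controls or without LKO replicate 1, where the female adjusted p of that edgeR test after Benjamini-Hochberg adjustment reached 0.101. Cyp39a1, the nearest gene to Bhlha15, rose in males by 2.75 (SE 0.32, adjusted p = 0.000696 in the quasi-likelihood F test of edgeR after Benjamini-Hochberg adjustment), while in females the change of 1.06 (SE 0.30) did not pass, at an adjusted p of 0.0570 from the same edgeR test and Benjamini-Hochberg adjustment. These genes were picked for likeness to genes that were themselves picked for their change, so their tests are no separate evidence.

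Position on the chromosome was not used to choose the genes. The 5 lie on 5 different chromosomes, and for each the 3 nearest tested genes on either side were examined, 30 in all. By the quasi-likelihood F test of edgeR after Benjamini-Hochberg adjustment over all genes, 0 of the 30 passed in males, with 2 at an unadjusted p under 0.05 and 0 by DESeq2. In females 1 of the 30 passed, with 5 at an unadjusted p under 0.05 and 1 by DESeq2. Among all genes tested, 0.454% were called in males (0.221% higher and 0.233% lower) and 4.24% in females (2.09% higher and 2.15% lower). An unadjusted p under 0.05 was found for 9.53% of all genes tested in males and 21.4% in females, and DESeq2 called 2.02% and 10.8%, so the corresponding counts given for gene groups are to be read beside these shares.

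The called neighbour was Ihh, which encodes the secreted ligand Indian hedgehog on the minus strand and whose nearer edge, its 3′ end, lies 141139 bases beyond the end of Wnt10a. Ihh was at 0.621, 0.603, 0.718 and 0.374 CPM in female CRE- replicates 1 to 4 and at 1.64, 2.39, 1.17 and 12.2 CPM in LKO replicates 1 to 4. Every female LKO library was above every control, but the mean rested largely on replicate 4. The log2 fold change was 2.90 (SE 0.66, adjusted p = 0.0266 in the quasi-likelihood F test of edgeR after Benjamini-Hochberg adjustment), and 1.57 and not called without LKO replicate 4. It was also not called without any of the 4 female controls in turn. In males Ihh changed by 0.27 (SE 0.61). The gene on the other side of Wnt10a, the sterol hydroxylase Cyp27a1, had log2 fold changes of 0.29 (SE 0.27) and -0.28 (SE 0.27) in males and females.

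The nearest tested genes beside the other members did not pass. Tecpr1, on the opposite strand, whose 3′ end lies at the base after the end of Bhlha15, had log2 fold changes of -0.33 (SE 0.28) in males and 0.08 (SE 0.28) in females. Lmtk2, 2078 bases from Bhlha15 on the other side, was at -0.02 (SE 0.17) and 0.04 (SE 0.18). Phka2, 3828 bases beyond Adgrg2, was at -0.30 (SE 0.16) and 0.00 (SE 0.16), and Pdha1 on its other side was at 0.16 (SE 0.18) and -0.20 (SE 0.18). Beside Lhx6, Rbm18 was at 0.04 (SE 0.16) and 0.19 (SE 0.16) and Ndufa8 at 0.27 (SE 0.27) and -0.07 (SE 0.27). Beside Baalc, the Wnt receptor gene Fzd6 was at -0.02 (SE 0.28) and 0.37 (SE 0.28) and Atp6v1c1 at 0.06 (SE 0.17) and 0.33 (SE 0.17). Genes on the opposite strand that overlap Baalc, Wnt10a or Adgrg2 (Gm53878, Gm32099 and Gm15241) had at most 2 reads in any library, so reads shared with them were few.

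**Figure D2:**
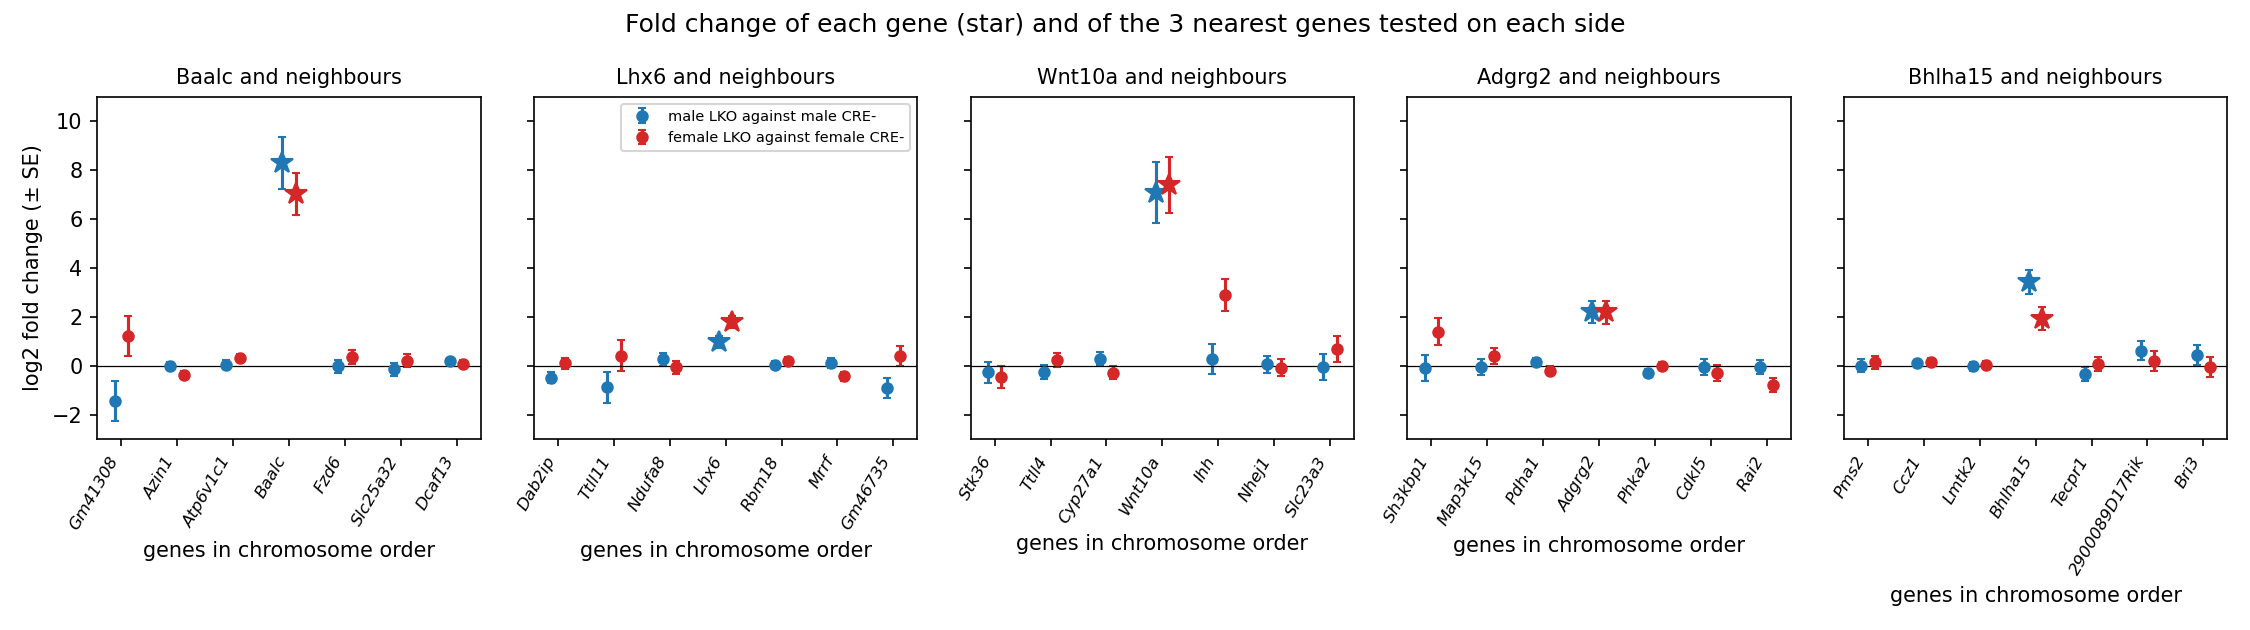
Log2 fold change ± SE (y axis) of each of the 5 genes (star) and of the 3 nearest tested genes on each side, in chromosome order (x axis), for male LKO against male CRE- (blue) and female LKO against female CRE- (red), with 4 libraries per group. Ihh beside Wnt10a, at 2.90 in females, was the neighbour that passed the test; the stars of Baalc and Wnt10a depend on the prior count, since their controls held almost no reads.

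Promoter sequences of RefSeq, on GRCm38.p6 and thus with coordinates that differ from the GRCm39 positions above, were matched by symbol for Lhx6, Adgrg2 and Bhlha15 and not for Baalc and Wnt10a. Each covers 250 bases before a transcript start and 50 after it, and Lhx6 has 3 starts. Both strands were searched for TGACGTCA, the full cAMP response element, TGACG, its core, which lies within it, TGATGNAA, the C/EBP-ATF composite element of the integrated stress response, ACGTG, the core of an unfolded protein response element, TATAAA, the TATA box, and CANNTG, the E-box bound by basic helix-loop-helix proteins. No match to TGACGTCA, TGACG or TGATGNAA was found in the promoters of the 3 genes, where 1.79%, 20.8% and 3.97% of 32851 promoters hold one. TATAAA, held by 13.6% of promoters, was found once, on the minus strand of 1 Lhx6 start. ACGTG, held by 19.6%, was found once, 20 bases after the start of Bhlha15. E-boxes, held by 72.3%, were found 3 times for Bhlha15, 2 times for Adgrg2 and 2 times for the most upstream start of Lhx6. These are matches of letters, not shown binding sites.

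The 250 bases before the start are printed for the 3 genes because they hold all E-box matches found, 5′ to 3′ on the gene's strand, with E-boxes in capitals. They lie at chr5:144190036-144190285 on the plus strand for Bhlha15, at chrX:160390440-160390689 on the plus strand for Adgrg2 and at chr2:36105409-36105658 on the minus strand for Lhx6, all on GRCm38.p6.
Bhlha15: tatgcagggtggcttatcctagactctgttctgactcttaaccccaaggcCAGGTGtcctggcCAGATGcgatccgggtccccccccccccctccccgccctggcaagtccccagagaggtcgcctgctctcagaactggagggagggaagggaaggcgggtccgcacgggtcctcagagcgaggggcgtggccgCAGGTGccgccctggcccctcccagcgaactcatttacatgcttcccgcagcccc
Adgrg2: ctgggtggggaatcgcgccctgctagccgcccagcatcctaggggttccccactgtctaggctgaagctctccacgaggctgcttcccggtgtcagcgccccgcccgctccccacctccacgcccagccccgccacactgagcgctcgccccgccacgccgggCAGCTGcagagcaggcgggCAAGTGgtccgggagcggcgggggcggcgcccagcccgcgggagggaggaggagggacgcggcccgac
Lhx6: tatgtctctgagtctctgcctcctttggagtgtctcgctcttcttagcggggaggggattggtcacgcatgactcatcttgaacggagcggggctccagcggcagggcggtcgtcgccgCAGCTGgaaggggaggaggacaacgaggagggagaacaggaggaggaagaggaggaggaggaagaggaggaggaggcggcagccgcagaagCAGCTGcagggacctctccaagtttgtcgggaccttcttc
The ACGTG match of Bhlha15, in capitals, lies within chr5:144190293-144190322 on the plus strand of GRCm38.p6.
Bhlha15 site: gtggctaaagctACGTGtccttgtcccccg

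The pathway of Wnt10a was examined through its other members. Of 19 Wnt ligand genes 7 were tested, and 0 of the 6 besides Wnt10a passed the quasi-likelihood F test of edgeR after Benjamini-Hochberg adjustment in either sex. At an unadjusted p under 0.05 there were 1 in males and 0 in females, and DESeq2 called 0 in both. Wnt5b, the ligand with the highest mean CPM over all 16 libraries, was at 6.33 ± 3.53 CPM in male and 8.58 ± 2.17 CPM in female controls and at 5.98 ± 1.502 and 7.19 ± 2.60 CPM in the corresponding LKO groups (SD, n = 4 each). The mean of Wnt10a in female LKO livers was 11.97 ± 13.5 CPM (SD, n = 4), with a median of 7.58 CPM. These levels of ligands are not divided by length. In female LKO replicate 2, Wnt10a made up 31.1 of the 49.1 CPM summed over all 19 ligands. Wnt2 and Wnt9b, ligands known from the endothelium around the central vein, were at 1.76, 4.39, 1.94 and 0.174 CPM and at 1.71, 2.39, 1.46 and 0.116 CPM in female LKO replicates 1 to 4. Female controls were at 1.99 to 4.94 CPM for Wnt2 and 1.64 to 2.73 CPM for Wnt9b.

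Among 25 tested receptors and modulators of Wnt signalling, 0 passed in males (3 at an unadjusted p under 0.05 in edgeR, 1 by DESeq2) and 1 in females, with median log2 fold changes of -0.11 and -0.03 against -0.01 and 0.04 over all genes tested. In females 3 had an unadjusted p under 0.05 in edgeR, and DESeq2 called 2. The female gene was Fzd8, a Frizzled receptor, which fell from 18.9 ± 4.64 to 8.03 ± 2.83 CPM (SD, n = 4 each; log2 fold change -1.24, SE 0.26, adjusted p = 0.0223 in the quasi-likelihood F test of edgeR after Benjamini-Hochberg adjustment). That call was lost without CRE- replicate 2, 3 or 4, where the Benjamini-Hochberg adjusted p of edgeR's quasi-likelihood test reached 0.0745. Of 18 targets of Wnt and β-catenin, 0 passed in males (2 at an unadjusted p under 0.05 in edgeR, 0 by DESeq2) and 1 in females, with medians of 0.11 and 0.32. In females 3 of the targets had an unadjusted p under 0.05 in edgeR, and DESeq2 called 2. The female gene was Myc, a growth regulator with many inputs, whose log2 fold change of 2.06 (SE 0.45, adjusted p = 0.0231 in the quasi-likelihood F test of edgeR after Benjamini-Hochberg adjustment) was likewise lost without CRE- replicate 2, 3 or 4, and also without LKO replicate 4. Axin2, a feedback inhibitor widely read as a Wnt target, was at 8.03, 11.1, 9.02 and 10.8 CPM in male LKO replicates 1 to 4 and between 3.20 and 11.4 CPM in male controls. In female LKO replicates 1 to 4 it was at 6.07, 15.9, 12.3 and 40.5 CPM, against 5.08 to 13.8 CPM in controls. Among female LKO libraries Axin2 was highest in replicate 4 and next in replicate 2, and Wnt10a highest in replicate 2 and next in replicate 4. For both genes replicate 3 and then replicate 1 followed. In males the orders differed, with Axin2 highest in LKO replicate 2, where Wnt10a was lowest. In females Lgr5 had the order of Axin2, at 6.37, 10.1, 7.43 and 18.6 CPM in LKO replicates 1 to 4, against 5.27 to 8.88 CPM in controls. Nkd1, another of the targets, also had it, at 4.63, 7.38, 6.77 and 8.59 CPM. Its female controls were at 7.10 to 13.1 CPM, so Nkd1 was not raised. Cyp2e1, the most abundant of the targets, did not have that order, at 1378, 3780, 6138 and 3045 CPM, against 4107 to 6316 CPM in controls. Replicate 4 also stood apart for Glul, at 5724 CPM against 1052 to 1841 CPM in the other female LKO libraries. A link between Wnt10a and these genes was not tested.

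Adgrg2 belongs to a family of 30 adhesion receptors, of which 20 were tested. Besides Adgrg2, 0 of 19 passed in males (3 at an unadjusted p under 0.05 in edgeR, 0 by DESeq2), and in females (6 and 4 by these measures) Adgre1 and Adgrg3 were higher and Adgra3 lower. Without any of the 4 female controls or LKO replicate 1 or 4 Adgrg3 lost its call, as did Adgra3 without CRE- replicate 2 or 3 or LKO replicate 1. Adgre1 is the macrophage marker F4/80, and its female log2 fold change was 2.15 (SE 0.57, adjusted p = 0.0451 in the quasi-likelihood F test of edgeR after Benjamini-Hochberg adjustment). The call was lost without any of the 4 controls and without LKO replicate 1 or 3, and the change was as low as 1.21 in these fits. Its level in female LKO replicate 1 was 334 CPM, against 45.2 to 99.4 CPM in the other 3. The median log2 fold change of the family without Adgrg2 was -0.15 in males and 0.21 in females. Of 14 marker genes of the male reproductive tract and germ cells, 7 had no read in any library and 9 had at most 3 reads, and their summed level was at most 1.34 CPM in a library. Lcn8 was the most abundant of them, at a mean of 0.350 CPM.

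Baalc was set beside 17 genes of its known interactor Klf4 and of the ERK kinase pathway. In males 0 of the 17 passed (2 at an unadjusted p under 0.05 in edgeR, 2 by DESeq2), and in females 1 passed (4 and 2 by these measures). This was Dusp4, a phosphatase induced by ERK, which rose from 1.66 ± 0.345 to 4.29 ± 0.409 CPM (SD, n = 4 each; log2 fold change 1.37, SE 0.24, adjusted p = 0.0113 in the quasi-likelihood F test of edgeR after Benjamini-Hochberg adjustment) and kept its call with any 1 female library left out. Without both control libraries that held pancreatic markers, left out after the data were seen, the log2 fold change was about as large, at 1.39, and the adjusted p was 0.0591 in the quasi-likelihood F test of edgeR after Benjamini-Hochberg adjustment. Its male change was 0.89 (SE 0.24) and did not pass. Klf4 had log2 fold changes of 0.29 (SE 0.37) in males and 0.78 (SE 0.37) in females, neither called. Of 13 markers of blood progenitors 11 were tested. Hlf, which hepatocytes also express, was the most abundant, and Hoxa9, not tested, had no read in any library. Of the 11, 0 passed in males (3 at an unadjusted p under 0.05 in edgeR, 1 by DESeq2). In females 3 had an unadjusted p under 0.05 in edgeR and DESeq2 called 2. Mpo, a granule enzyme of myeloid cells, passed in females, at 17.5, 0.399, 4.94 and 39.0 CPM in LKO replicates 1 to 4, a call lost without CRE- replicate 2, 3 or 4 and without LKO replicate 1 or 4. Female controls were between 0.117 and 1.15 CPM and overlapped with the LKO group. In males Mpo was at 6.17, 0.401, 1.04 and 12.9 CPM in CRE- replicates 1 to 4 and at 0.103, 0.333, 0.298 and 0.0540 CPM in LKO replicates 1 to 4, with every LKO library below every control and a log2 fold change of -4.65 (SE 1.29), not called. In female LKO replicate 2, where Baalc was highest, Cd34 was at 3.44 CPM, below the female controls at 3.58 to 4.57 CPM. Kit was at 6.63 CPM there, above the female controls at 4.22 to 4.93 CPM. The part of blood cells in the Baalc values was not tested.

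Lhx6 is 1 of 14 LIM-homeobox genes and cofactors examined, of which 4 were tested. The other 3 tested genes did not pass in either sex, with 0 and 1 at an unadjusted p under 0.05 in edgeR and 0 and 1 called by DESeq2 in males and females. Ldb1, the cofactor that LIM-homeodomain proteins bind, was the most abundant, with log2 fold changes of 0.21 (SE 0.18) in males and 0.65 (SE 0.18, adjusted p = 0.0528 in the quasi-likelihood F test of edgeR after Benjamini-Hochberg adjustment) in females. Lhx2, known in the liver from stellate cells, was at 4.06 ± 0.456 CPM in male LKO and 3.88 ± 2.07 CPM in female LKO livers (SD, n = 4 each), with changes of -0.14 (SE 0.37) and -0.31 (SE 0.37).

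Bhlha15 is induced by XBP1 in secretory cells and drives genes of vesicle traffic. Of 8 tested targets and vesicle genes, 0 passed in males (2 at an unadjusted p under 0.05 in edgeR, 1 by DESeq2) and 1 in females, with median log2 fold changes of 0.07 and 0.43. Among the 8 in females, 5 had an unadjusted p under 0.05 in edgeR, 2 of them higher, and DESeq2 called 3. The summed level, mostly of the gap junction gene Gjb1, was 884 to 1172 CPM in female controls and 445 to 693 CPM in female LKO livers, without overlap. In males it was 595 to 807 CPM in controls and 495 to 819 CPM in LKO livers. Gjb1 had a female log2 fold change of -0.82 (adjusted p = 0.0563 in the quasi-likelihood F test of edgeR after Benjamini-Hochberg adjustment). The female gene that passed was Smpd3, at 2.45 (SE 0.67, adjusted p = 0.0490 in the quasi-likelihood F test of edgeR after Benjamini-Hochberg adjustment). The female groups overlapped, the call was lost without any of the 4 controls and without LKO replicate 1 or 4, and the male value was -2.21 (SE 0.67), not called. Rab3d, a small GTPase of secretory granules, was between 14.1 and 18.1 CPM in male controls and at 27.3, 22.8, 23.2 and 23.9 CPM in male LKO replicates 1 to 4. Its log2 fold changes of 0.57 (SE 0.17) in males and 0.47 (SE 0.17) in females did not pass, and Rab26, a known target in acinar cells, had at most 10 reads in a library. Of 18 tested genes of the unfolded protein response, 0 passed in either sex by edgeR's quasi-likelihood test, with 1 at an unadjusted p under 0.05 in each sex and 0 and 1 called by DESeq2 in males and females. Xbp1 itself had log2 fold changes of 0.29 (SE 0.22) and 0.16 (SE 0.22), and the chaperone Hspa5 of 0.30 (SE 0.33) and -0.43 (SE 0.33).

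In the integrated stress response ATF4 induces genes of amino acid synthesis and transport. Of 29 tested genes, 9 rose in males and 9 in females, with median log2 fold changes of 1.06 and 1.17 against -0.01 and 0.04 over all genes tested. Asparagine synthetase, Asns, was between 0.468 and 0.854 CPM in male controls and at 87.9, 44.0, 29.5 and 26.4 CPM in male LKO replicates 1 to 4. In females it was between 0.214 and 1.91 CPM in controls and at 20.7, 12.9, 24.8 and 7.58 CPM in LKO replicates 1 to 4. An unadjusted p under 0.05 in edgeR was found for 20 in males and 16 in females, all higher, and DESeq2 called 15 and 14. The summed level of the list, with Atf5 the most abundant gene, was 1275 to 1830 CPM in male controls and 2380 to 2742 CPM in male LKO livers, without overlap. In females it was 1935 to 2358 CPM in controls and 1607 to 2596 CPM in LKO livers, and the groups overlapped. Psat1, Phgdh, Trib3, Fgf21, Mthfd2 and Adm2 also passed in both sexes, Atf5 and Aldh1l2 in males and Sesn2 and Slc7a1 in females. Over the 8 fits with 1 male library left out, Asns, Psat1, Phgdh and Adm2 were called in all 8. Fgf21 was called in 5, Aldh1l2 and Mthfd2 in 3, Atf5 in 2 and Trib3 in 1. Over the 8 such female fits, Asns, Psat1 and Adm2 were called in all 8. Fgf21 and Phgdh were called in 5, Mthfd2 in 4, Slc7a1 in 3 and Trib3 and Sesn2 in 2. The count of 9 moved with single libraries. In males it was 4 without CRE- replicate 1, 2 or 3, and 6 without LKO replicate 1. In females it was 3 without CRE- replicate 2, 3 or 4, 5 without LKO replicate 1 and 6 without LKO replicate 3. None of Baalc, Lhx6, Wnt10a, Adgrg2 or Bhlha15 is in this list, and male LKO replicate 1, which had the most Asns, had the least Bhlha15 of its group and the most Adgrg2.

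Of 20 tested genes that glucagon and cAMP are known to control, 1 passed in males and 3 in females, with median log2 fold changes of -0.54 and 0.11. At an unadjusted p under 0.05 in edgeR there were 8 in males, 1 of them higher, and 9 in females, 6 of them higher, and DESeq2 called 2 and 5. The summed level of the list, in which Cps1 was the most abundant gene, was 4923 to 6657 CPM in male controls and 2340 to 4365 CPM in male LKO livers, without overlap. In females it was 4646 to 6838 CPM in controls and 2667 to 7580 CPM in LKO livers. The phosphodiesterase gene Pde4b fell in males from 21.1 ± 2.15 to 5.12 ± 0.252 CPM (SD, n = 4 each; log2 fold change -2.04, SE 0.28, adjusted p = 0.00290 in the quasi-likelihood F test of edgeR after Benjamini-Hochberg adjustment) and changed by -0.37 (SE 0.26) in females. In females Sik1, Pfkfb3 and Igfbp1 passed, all higher, and each lost its call without CRE- replicate 2, 3 or 4, Pfkfb3 also without CRE- replicate 1 or LKO replicate 1, and Pfkfb3 and Igfbp1 without LKO replicate 4. The difference between the sexes was not tested.

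Markers of other cells that could hold the 5 genes were measured in each library. Bhlha15 is a regulator of pancreatic acinar cells. Of 17 acinar markers 4 were tested, and the most abundant was Nr5a2, which hepatocytes also express. Their summed level was 332 CPM in male CRE- replicate 2 and 1152 CPM in female CRE- replicate 2, against 49.8 to 88.4 CPM in the other 14 libraries. The trypsinogen gene Prss2 was at 18.7 and 79.5 CPM in those controls and at most 0.248 CPM in any LKO library, and carboxypeptidase Cpa1 likewise was at most 0.248 CPM in LKO livers. The elastase gene Cela2a was at 43.9 and 163 CPM in the same controls. In the other 3 female controls it was between 0.160 and 0.444 CPM, and in female LKO replicates 1 to 4 it was at 0.554, 0.898, 1.46 and 1.45 CPM. Bhlha15 was at 0.356 and 0.740 CPM in the same controls, the latter the highest control value. Without both libraries its log2 fold change was 3.49 in males and 2.21 in females. The part of acinar RNA in these values was not tested. Nr5a2 passed in females as lower, by -0.58 (SE 0.16, adjusted p = 0.0483 in the quasi-likelihood F test of edgeR after Benjamini-Hochberg adjustment), a call kept only without LKO replicate 2 among the fits with 1 female library left out, and 0 of the 4 passed in males. At an unadjusted p under 0.05 in edgeR there were 1 in males and 4 in females, all lower, and DESeq2 called 0 and 1.

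Plasma cells are another known site of Bhlha15. Of 13 tested plasma and B cell markers, 0 passed in either sex by edgeR's quasi-likelihood test (2 in males and 4 in females at an unadjusted p under 0.05, 0 by DESeq2 in both), and the most abundant was Sdc1, which hepatocytes also express. Jchain, which joins secreted immunoglobulins, was between 24.7 and 47.3 CPM in male CRE- and between 18.1 and 43.7 CPM in male LKO livers. In female controls it was between 15.3 and 31.4 CPM, and in female LKO replicates 1 to 4 it was at 19.4, 41.5, 84.7 and 12.4 CPM. Bhlha15 was highest among females in LKO replicates 4 and 3, at 3.07 and 2.71 CPM, and these had the least and the most Jchain of all 16 libraries. LKO replicate 3 also had the most Igkc, at 323 CPM, and Mzb1, at 6.13 CPM. The part of plasma cells in the Bhlha15 values was not tested.

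Female LKO libraries also stood apart in other markers. The 15 macrophage and neutrophil markers, with Cd5l the most abundant and none at 0, summed to 3302, 803, 1725 and 1441 CPM in female LKO replicates 1 to 4 and to 460 to 835 CPM in female controls, and 3 of 14 tested genes were called, all higher. The 17 oncofetal genes, with H19 the most abundant, summed to 68.0, 312, 172 and 2434 CPM in female LKO replicates 1 to 4 and to 147 to 275 CPM in controls, with 4 of 11 tested genes higher. Proliferation markers, with Pcna the most abundant, summed to 188, 72.8, 109 and 103 CPM against 51.7 to 78.8 CPM in female controls, with 6 of 15 higher. The macrophage and neutrophil genes called were Trem2, a receptor of lipid-laden macrophages, Retnlg, a neutrophil gene, and Adgre1. The oncofetal genes were Igf2, a fetal growth factor, H19, Birc5 and Afp, the fetal serum protein, and the groups of H19 and Afp overlapped. Of the proliferation genes the first 4 by p were the mitotic kinase Nek2, Ccnb1, Plk1 and Cdk1. Nek2, higher by 2.14 on the log2 scale (SE 0.31, adjusted p = 0.00370 in the quasi-likelihood F test of edgeR after Benjamini-Hochberg adjustment), kept its call with any 1 female library left out, and each of the others named lost it in at least 3 of those 8 fits. These counts of 3, 4 and 6 moved with single libraries. They were 2, 2 and 2 without CRE- replicate 1, 0, 0 and 1 without CRE- replicate 2 or 3, and 0, 1 and 2 without CRE- replicate 4. Leaving out LKO replicate 1 gave 0, 2 and 1, replicate 2 gave 9, 5 and 8, replicate 3 gave 4, 4 and 4, and replicate 4 gave 2, 3 and 4. At an unadjusted p under 0.05 in edgeR there were 13, 8 and 12 genes of these lists in females, of which 13, 7 and 12 were higher, and DESeq2 called 12, 6 and 11. In males 0 genes of these 3 lists passed (4, 3 and 2 at an unadjusted p under 0.05 in edgeR, 0, 2 and 0 by DESeq2). The part of these cells in the female values was not tested. Without female LKO replicates 1 and 4, which stood highest for macrophage and for oncofetal genes, the female log2 fold changes were 7.94 for Wnt10a, 2.57 for Adgrg2, 7.41 for Baalc, 1.87 for Lhx6 and 1.77 for Bhlha15.

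Lists of bile duct, stellate, T and NK cell and hepatocyte markers had 0 called genes of 14, 15, 12 and 14 tested in both sexes by edgeR's quasi-likelihood test. At an unadjusted p under 0.05 they held 2, 1, 0 and 4 genes in males and 2, 0, 1 and 5 in females, and DESeq2 called 0 in males and 1, a hepatocyte marker, in females. Of 12 endothelial markers 0 passed in males (1 at an unadjusted p under 0.05 in edgeR, 0 by DESeq2) and 2 in females (4 and 3 by these measures), Cdh5 and Vwf, both higher, calls lost without CRE- replicate 2, 3 or 4 or LKO replicate 1, and for Vwf also without CRE- replicate 1 or LKO replicate 4. Hepatocyte markers, with Alb the most abundant, summed to 71368 CPM in female LKO replicate 1, the lowest of all libraries. All 4 female LKO libraries, at 71368 to 121823 CPM, were below all 4 female controls, at 142591 to 167768 CPM, and the median log2 fold change of the list was -0.51 in females and 0.01 in males. Female LKO replicates 1 and 4, at 71368 and 97338 CPM, were the lowest of their group for these markers and for Gcgr. The part of the hepatocyte marker difference in the female values of the 5 genes and of Gcgr was not tested.

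Genes of the same kind were counted in the whole table. With a control mean under 0.5 CPM, a log2 fold change of at least 2 and an adjusted p under 0.05 from the quasi-likelihood F test of edgeR after Benjamini-Hochberg adjustment, 11 genes rose in males and 88 in females, and 6 in both sexes. Of the 5 genes, 3, 2 and 2 are in these counts, as their choice made them. In males 0.414% of 2655 near-silent genes were called higher and in females 3.28% of 2808, against 0.221% and 2.09% of all genes tested, with 0.113% called higher in both sexes. Near-silent genes can pass the filter on low counts through their LKO libraries, which favours calls of higher among them. The choice of the 5 genes also used the same contrasts, so nothing is read from these counts and shares.

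Besides the 5 genes, those in both sexes were Adm2, the renin gene Ren1, the protocadherin gene Pcdh20 and the non-coding gene Gm29915. Adm2 had no read in male controls and was at 4.58, 1.58, 1.34 and 1.57 CPM in male LKO replicates 1 to 4 and at 0.252, 0.598, 1.54 and 1.27 CPM in female LKO replicates 1 to 4. Ren1 was at most 0.0449 CPM in any control and at 6.997, 10.6, 4.62 and 7.02 CPM in male LKO replicates 1 to 4, against 0.806, 3.94, 0.439 and 0.116 CPM in female LKO replicates 1 to 4. Pcdh20 was highest in male LKO replicate 3, at 3.48 CPM, and female LKO replicate 2, at 2.29 CPM, the same libraries as Wnt10a. Besides the 5 genes, the first by p were Adm2, Ren1 and the folate enzyme gene Aldh1l2 in males, and the imprinted gene Peg10, Baiap2l2 and Adm2 in females.

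These counts depended on single libraries. The male count was 4 without CRE- replicate 1, 2 or 3, 7 without LKO replicate 1 and 6 without LKO replicate 3. The female count was 43, 9, 9 and 13 with CRE- replicates 1 to 4 left out in turn, 38 and 53 without LKO replicate 1 or 4 and 149 without LKO replicate 2. The count in both sexes was between 3 and 9 over these fits.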

How the data were processed

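Poly-A RNA of 16 livers was sequenced as read pairs. Per the file headers and the submitters' processing notes, the authors aligned reads to GRCm39 with STAR 2.7.1a and counted them per gene, by strand, with featureCounts of Subread 2.0.6. The deposited table holds the count of reads per gene without normalization. Of its 68955 counts from 1 to 10, 85.0% were even, since both mates of a pair were counted.

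Low counts were removed by filterByExpr (minimum count 10), TMM factors were computed, and 1 model of all 4 groups was fitted (edgeR 4.0.16, R 4.3.3). The quasi-likelihood F test was used with Benjamini-Hochberg adjustment over all genes tested and a threshold of 0.05. This step was tested on simulated data for the female comparison only, where some changed genes were missed and the share of false calls was slightly above the threshold. The SE is the log2 fold change over the root of F, and that of a sex difference combines both SEs. DESeq2 1.42.0, other settings and each library left out were alternatives.

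The 5 genes and the gene lists were chosen with earlier results of these data known. Of each list, called genes (up to 4 per sex, by p, and all of the integrated stress response) are named, otherwise the most abundant gene and known markers, and of the neighbours those called and the nearest on each side. A few further genes, such as Axin2 and Glul, were singled out after their values were seen. Of 35085 symbols shared with GENCODE vM39, 35072 overlapped their GRCm39 position. Promoters are from RefSeq. The interneuron list is not reported here.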

Additional observations from a re-analysis of the deposited data

Results flagged for a closer look

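In 10 of 116 groups of 4 libraries, 1 library lay far from the other 3 by Dixon's criterion, where chance flags about 1 in 20. For the chosen genes this rested on 2 and 4 reads, in female CRE- replicate 2, the only female control with Baalc (0.0389 CPM), and in male CRE- replicate 4, the only male control with Wnt10a (0.0899 CPM). Gcgr was low in male CRE- replicate 3, at 127.3 CPM against 189.6 to 192.9 CPM in the other male controls. Pancreatic acinar markers summed to 331.8 CPM in male CRE- replicate 2 and 1152 CPM in female CRE- replicate 2. Male LKO replicate 1 was high for the integrated stress response, at 2742 CPM against 2380 to 2412 CPM, and for macrophage and neutrophil markers, at 956.3 CPM against 513.6 to 588.0 CPM. Female LKO replicate 1 was high for adhesion receptors, at 743.9 CPM against 286.8 to 342.5 CPM, of which Adgre1 made up 334 CPM. Oncofetal genes summed to 2434 CPM in female LKO replicate 4, against 68.02 to 312.2 CPM. Hepatocyte markers were lowest among male controls in CRE- replicate 1, at 93080 CPM. The causes of these values were not tested.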

How the results depend on the processing

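The counts of called genes were 76 in males and 710 in females, and the direction of every fold change of the 5 genes, which their choice fixes, was kept under each alternative. DESeq2 called 339 genes in males and 1816 in females, with 25 and 69 list genes, 15 and 14 of the integrated stress response, and 47 and 203 near-silent risers, 17 in both sexes. With each sex fitted alone, the female counts were 119 genes, 11 list genes, 4 of the stress response, 11 risers and 0 neighbours, with 3 risers in both sexes. With counts halved, the male log2 fold change of Baalc was 7.29. A near-silent level of 0.2 CPM gave 49 female risers. Alternatives chosen after seeing the data left out libraries. Without the control libraries with pancreatic markers, the male counts were 27 genes, 6 list genes, 4 of the stress response and 4 risers, the female counts 55, 3, 2 and 7, with 0 neighbours and 1 riser in both sexes, and Baalc in females was at 9.27. Without female LKO replicates 1 and 4 the female counts were 78 genes, 9 list genes, 5 of the stress response, 14 risers and 0 neighbours. Of 41 list genes, neighbours and nearest patterns called in females, 3 (Asns, Nek2 and Psat1) kept their call without the libraries with pancreatic markers, where the log2 fold changes of the other 38 moved by a median of 0.0800. Without LKO replicates 1 and 4 the call was kept by 11 (these 3, Adm2, Baiap2l2, Dusp4, Fgf21, H19, Igf2, Phgdh and Slc25a33), and with each sex alone by 12 (these 3, Adm2, Baiap2l2, Dusp4, Myc, Pfkfb3, Phgdh, Plk1, Slc25a33 and Trem2). Without a filter on low counts 4 lost it (Adgrg3, Aurkb, Nr5a2 and Zfp9), and with the size factors of DESeq2 Smpd3 did. Of 14 such genes called in males, 7 lost their call without the libraries with pancreatic markers. They were Aldh1l2, Atf5, Fgf21, Mthfd2, Pycr1, Trib3 and Wnk4, and their log2 fold changes moved by a median of 0.117. With each sex alone Atf5 lost its male call. Fits without libraries have fewer samples, and other causes were not tested. The female log2 fold change of Gcgr was not called with each sex fitted alone (-0.91), without a filter on low counts (-0.92), without the libraries with pancreatic markers (-0.85) or without LKO replicates 1 and 4 (-0.56). Of the main values under settings other than single libraries left out, 34 moved, 4, all of Gcgr, lost their call and 139 did neither.

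With each library left out, male counts ranged from 26 to 49 genes, 6 to 10 list genes, 4 to 8 of the stress response, 4 to 9 risers and 0 to 0 neighbours. Female counts ranged from 87 (without CRE- replicate 2) to 1310 (without LKO replicate 2) genes, 5 to 53 list genes, 3 to 11 of the stress response, 9 to 149 risers and 0 to 1 neighbours, with 3 to 9 risers in both sexes. Male log2 fold changes ranged from 7.92 to 8.54 for Baalc, 0.83 to 1.09 for Lhx6, 6.04 to 10.20 for Wnt10a, 2.02 to 2.47 for Adgrg2, 3.20 to 3.59 for Bhlha15 and -0.51 to -0.32 for Gcgr. Female ones ranged from 6.67 to 9.26, 1.59 to 1.98, 6.29 to 7.78, 1.90 to 2.68, 1.64 to 2.21 and -1.11 to -0.69 in the same order.

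The replicate numbers were not taken to pair the samples, since the correlation of deviations from the group means was over 0.1 for 6 of the 8 same-numbered pairs and not for all. It was 0.170, 0.170, 0.144 and -0.0130 in males and 0.173, 0.105, 0.117 and 0.0281 in females. These numbers are those of the labels. In the column headers some same-numbered pairs carry different numbers, among them replicate 4 of each sex, whose correlations were the lowest. A pairing by header number was not tested, and the labels do not say whether either numbering marks one. Of the 16 libraries, 9 correlated best with their own number. The replicate block gave 67 genes in males and 1012 in females. In females it gave 0 called neighbours, 1 in place of 3 adhesion receptors, 0 in place of 1 acinar marker, 3 in place of 1 Wnt target and 2 in place of 1 Bhlha15 target. Of the 41 list genes, neighbours and nearest patterns called in females, 8 lost their call under the block. They were Adgre1, Adgrg3, Aurkb, Igfbp1, Ihh, Nr5a2, Plk1 and Zfp9.

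Depth limits the ratios of Baalc and Wnt10a, whose controls held 0 to 12 reads per group, as their wide counting intervals show. For Bhlha15, with 52 and 92 control reads, the 95% counting interval was 7.45 to 17.4 in males and 2.71 to 5.35 in females.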
